A study of Mus musculus with 10 samples.

Results

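The transcripts examined here encode 10 amino acid transporters of the plasma membrane: *Slc7a1*, *Slc7a3*, *Slc7a5*, *Slc7a6*, *Slc3a2*, *Slc1a4*, *Slc1a5*, *Slc38a1*, *Slc38a2* and *Slc6a9*. They were taken by gene symbol from the 43346 genes of the raw count table, and all 10 were present. RNA sequencing was performed on 10 libraries of mouse O9-1 cells, a tetraploid cell line derived from cranial neural crest that grows on Matrigel in conditioned medium. Unedited wildtype cells gave 4 libraries that are labelled as biological replicates. Kat5 ko and Ep400 ko cells gave 3 libraries each, and every ko library is a separate clone obtained after CRISPR/Cas9 editing of *Kat5* or *Ep400* and cell sorting, so that clone and genotype cannot be told apart within a library. As described for the study's clones, not every Ep400 ko clone carried frameshifts in all alleles, and short in-frame deletions remained in some. Each ko was compared with the same 4 wildtype libraries, so that both comparisons share their controls, and the ko groups were also compared directly.

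Cells take up amino acids through transporters with overlapping substrates. The heavy chain encoded by *Slc3a2* pairs with light chains of the Slc7 family and brings them to the cell surface. The light chain encoded by *Slc7a5* exchanges large neutral amino acids such as leucine, and the one encoded by *Slc7a6* exchanges cationic for neutral amino acids. *Slc7a1* and *Slc7a3* encode carriers of arginine and lysine that work without a heavy chain. *Slc1a4* and *Slc1a5* encode sodium-dependent exchangers of small neutral amino acids, the latter also of glutamine, whereas *Slc38a1* and *Slc38a2* encode sodium-coupled importers of glutamine and alanine, and *Slc6a9* encodes a glycine transporter. Kat5 and Ep400 are the acetyltransferase and the ATP-dependent remodeler of the Tip60/Ep400 chromatin complex. Amino acid shortage activates the kinase Gcn2 and the transcription factor Atf4, and several of these transporter genes are textbook targets of this response.

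Libraries held 30968945 to 48301792 counts. Levels are given as CPM, the counts of a gene scaled to a common library size after trimmed mean correction, and a gene was called when its Benjamini-Hochberg adjusted p in edgeR's quasi-likelihood test was at most 0.05. *Kat5* was at 53.8 ± 3.98 CPM in wildtype (SD, n = 4) and 20.8 ± 3.83 CPM in Kat5 ko clones (SD, n = 3), and *Ep400* was at 159 ± 3.91 CPM in wildtype (SD, n = 4) and 58.6 ± 3.47 CPM in Ep400 ko clones (SD, n = 3). Of 12 neural crest and cranial mesenchyme markers, 10 exceeded 1 CPM on average in wildtype, and *Sox10* was at 0 in every group. Their summed level ranged from 1570 to 1821 CPM in wildtype, from 1654 to 1834 CPM in Kat5 ko and from 1824 to 3058 CPM in Ep400 ko. The summed level of 4 bone and cartilage markers ranged from 6.31 to 25.3 CPM in wildtype, from 3.86 to 56.3 CPM in Kat5 ko and from 0.219 to 1.22 CPM in Ep400 ko, with *Acan* at 18.3 CPM on average in wildtype and 0.0730 CPM in Ep400 ko. Ep400 ko thus lay above wildtype in the former sum and below it in the latter, without overlap, but narrowly so in the former. *Prrx1*, at 827 CPM on average in wildtype and 1335 CPM in Ep400 ko, was the largest part of the former sum. Of 11 neural crest and cranial mesenchyme markers tested in Ep400 ko, 7 had a positive and 4 a negative log2-fold change. The bone and cartilage markers other than *Acan* were at 0.388 CPM or less on average in every group. That of 4 smooth muscle markers ranged from 5.84 to 16.6 CPM in wildtype, from 0.461 to 685 CPM in Kat5 ko and from 2.34 to 58.8 CPM in Ep400 ko. Those of epithelium, blood, endothelium, glia and neurons stayed at or below 22.9 CPM in every library. Within these low sums, neurons ranged from 2.97 to 4.98 CPM in wildtype and from 5.18 to 22.9 CPM in Ep400 ko. Endothelium reached 0.867 to 1.61 CPM in wildtype, at most 0.551 CPM in Kat5 ko and 0.274 CPM in Ep400 ko. Epithelium reached 1.27 to 3.23 CPM in wildtype, at most 0.725 CPM in Kat5 ko and 0.871 CPM in Ep400 ko. Blood was also higher in Ep400 ko, at 0.375 CPM or less, and glia overlapped. The part of such cell state differences in the transporter results was not tested, and in bulk RNA fewer cells of a type and less RNA per cell cannot be told apart.

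In wildtype cells the transporters covered a wide range of levels. Per kilobase of exon, which allows levels of different genes to be compared, *Slc7a5* was the most abundant at 76.0 ± 21.2 CPM per kb (SD, n = 4), followed by its heavy chain *Slc3a2* at 62.0 ± 17.2 and the glutamine importer *Slc38a2* at 41.1 ± 16.7 CPM per kb. *Slc1a5* reached 23.7, *Slc1a4* 15.8, *Slc7a6* 11.1, *Slc6a9* 9.89, *Slc7a1* 8.16 and *Slc38a1* 4.99 CPM per kb on average. *Slc7a3* was at 0.306 CPM per kb. Neighbours in this order overlapped in their ranges across wildtype libraries with the exception of *Slc38a1* and *Slc7a3*. Within libraries, every neighbour pair down to *Slc1a4* kept this order in 4 of 4 wildtype libraries. So did *Slc7a1* with *Slc38a1* and *Slc38a1* with *Slc7a3*. *Slc1a4* with *Slc7a6*, *Slc7a6* with *Slc6a9* and *Slc6a9* with *Slc7a1* kept it in 3 of 4. In Ep400 ko clones *Slc3a2* took the first place at 87.4 ± 8.84 CPM per kb (SD, n = 3), and *Slc38a1* was at 0.146 ± 0.169 CPM per kb (SD, n = 3), where its range overlapped that of *Slc7a3*.

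**Figure D1:**
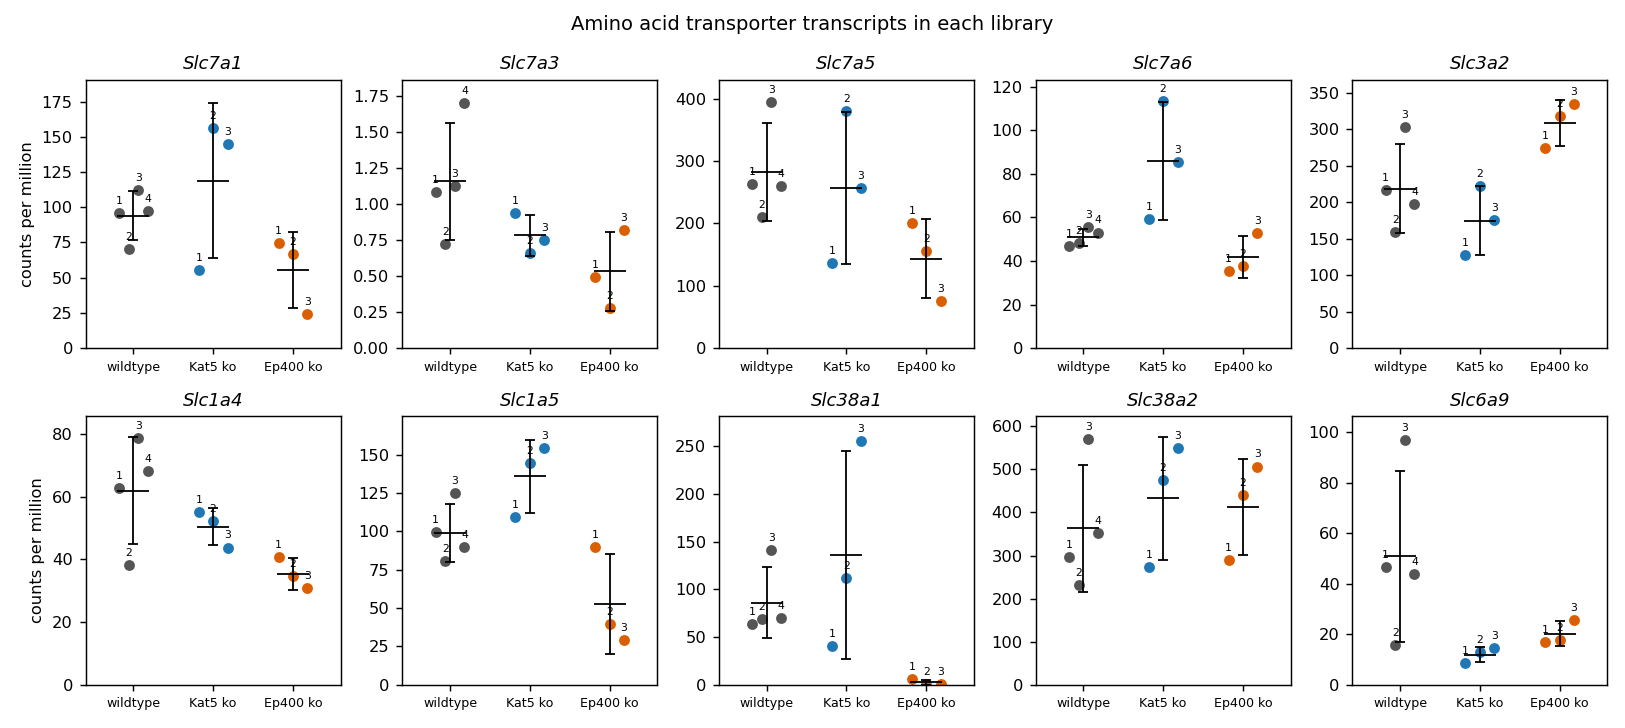
Level of each of the 10 transporters in CPM (vertical axis, from 0, with a separate scale for each gene) in every library, numbered by replicate or clone; the horizontal mark and bar give mean and SD. *Slc38a1* lay between 0.750 and 5.89 CPM in the 3 Ep400 ko clones and at 41.0 CPM or more in all other libraries.

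None of the 10 transporters passed the threshold in Kat5 ko clones, whereas *Slc38a1* fell in Ep400 ko clones. In the Kat5 ko comparison edgeR called 0 of 10 transporters, beside 0.625% of the 13434 genes tested. At an unadjusted p under 0.05, edgeR found 2 transporters at higher and 1 at lower level, beside 10.7% and 11.6% of all genes tested. DESeq2 called *Slc7a6* and *Slc6a9*, beside 1382 of the 21904 genes with a p-value in that fit. The median log2-fold change of the 10 transporters was 0.03 in Kat5 ko, and that of all genes tested was close to 0. In the Ep400 ko comparison 1 of 10 was called, at a lower level, beside 5.72% of the 13836 genes tested that were called lower and 13.7% called in either direction. Here 1 transporter was higher and 5 were lower at an unadjusted p under 0.05, beside 18% and 14.2% of all genes tested. DESeq2 called 4, namely *Slc38a1*, *Slc7a5*, *Slc1a4* and *Slc6a9*, beside 3177 of the 22442 genes with a p-value in that fit. The median log2-fold change of the transporters was -0.86, and that of all genes tested was 0.04. Leaving out Kat5 ko clone 1 brought *Slc7a1* (log2-fold change 0.64, adjusted p = 0.0455 in edgeR) and *Slc7a6* (0.93, adjusted p = 0.00909) past the threshold in the Kat5 ko comparison. Fits that left out 1 library called between 1 and 2654 genes in this comparison, against 84 with all libraries. These 2 calls are given without the share called of the 13703 genes tested in that fit.

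**Figure D2:**
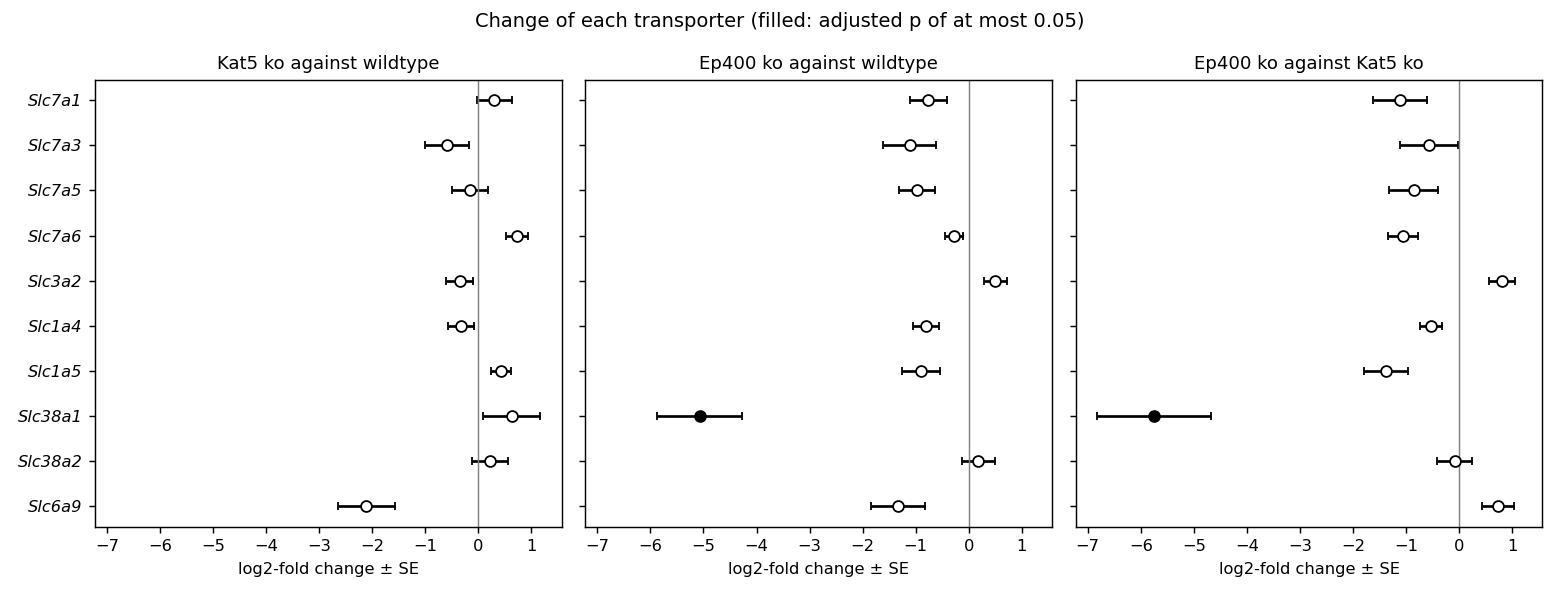
log2-fold change with SE of each transporter (rows) in the 3 comparisons (panels); filled points were called in edgeR and open points were not. *Slc38a1* is the filled point in both panels with Ep400 ko, at -5.07 against wildtype and -5.75 against Kat5 ko.

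*Slc38a1* and *Slc38a2*, the sodium-coupled glutamine importers, are neighbours on chromosome 15, and of these *Slc38a1* was called in Ep400 ko and *Slc38a2* was not. *Slc38a1* (ENSMUSG00000023169, mm10 chr15:96571418-96642913, minus strand) was at 63.5, 68.6, 141 and 70.5 CPM in wildtype libraries 1 to 4, at 41.0, 112 and 255 CPM in Kat5 ko clones 1 to 3 and at 5.89, 0.750 and 0.921 CPM in Ep400 ko clones 1 to 3. All Ep400 ko clones were far below every other library, and clone 1 kept more transcript than the others. These clones retained 6.85%, 0.872% and 1.07% of the wildtype mean and rested on 251, 24 and 37 counts. The log2-fold change was -5.07 (SE 0.79, adjusted p = 0.00713 in edgeR), which is 33.7-fold lower. The call was kept in 7 of 7 fits that left out 1 library, with log2-fold changes between -6.68 (without Ep400 ko clone 1) and -4.67 (without Ep400 ko clone 2). Kat5 ko clones spread from below to above the wildtype range, with clone 3 highest of all libraries, and the log2-fold change was 0.63 (SE 0.54, adjusted p = 0.528); without clone 3 it was -0.19.

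*Slc38a2* (ENSMUSG00000022462, mm10 chr15:96687392-96699730, minus strand) was at 297, 232, 571 and 353 CPM in wildtype libraries 1 to 4, at 273, 474 and 549 CPM in Kat5 ko clones 1 to 3 and at 290, 440 and 506 CPM in Ep400 ko clones 1 to 3. The 3 groups overlapped widely. The log2-fold change was 0.18 (SE 0.32, 95% confidence interval -0.54 to 0.91, adjusted p = 0.728 in edgeR) in Ep400 ko and 0.22 (SE 0.33, interval -0.54 to 0.98, adjusted p = 0.737) in Kat5 ko.

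The ratio of *Slc38a2* to *Slc38a1* CPM, which does not depend on library scaling, was 4.68, 3.38, 4.04 and 5.01 in wildtype libraries 1 to 4 and 6.67, 4.22 and 2.15 in Kat5 ko clones 1 to 3. It was 49.3, 587 and 550 in Ep400 ko clones 1 to 3. The ratio of every Ep400 ko clone thus lay above all other libraries. The difference from wildtype was 5.89 on the log2 scale (two-sided exact permutation test p = 0.0571, adjusted p = 0.286 over 15 ratio comparisons), and 0.0571 is the smallest p that 4 against 3 libraries allow.

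A gap of 44478 bases separates the *Slc38a1* and *Slc38a2* gene models, and a further family member, *Slc38a4*, follows on the same chromosome. *Slc38a4* encodes a transporter of neutral and cationic amino acids and is imprinted in mouse. It was at 52.7, 48.8, 186 and 62.9 CPM in wildtype libraries 1 to 4, at 50.5, 93.4 and 141 CPM in Kat5 ko clones 1 to 3 and at 1.67, 4.69 and 9.11 CPM in Ep400 ko clones 1 to 3. All Ep400 ko clones lay below every other library. The log2-fold change in Ep400 ko was -4.09 (SE 0.73, adjusted p = 0.0111 in edgeR), and that in Kat5 ko was 0.08 (SE 0.53, adjusted p = 0.945). In a window reaching 1 Mb beyond *Slc38a1* on its outer side and 1 Mb beyond *Slc38a2* on the other, 7 other protein-coding genes were tested. This window was chosen after the values were seen. Of these genes, *Slc38a4* was called lower in edgeR, beside 5.72% of all genes tested, and 0 were called higher, beside 8%. *Slc38a2*, which sits between the genes that fell, was not called.

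**Figure D3:**
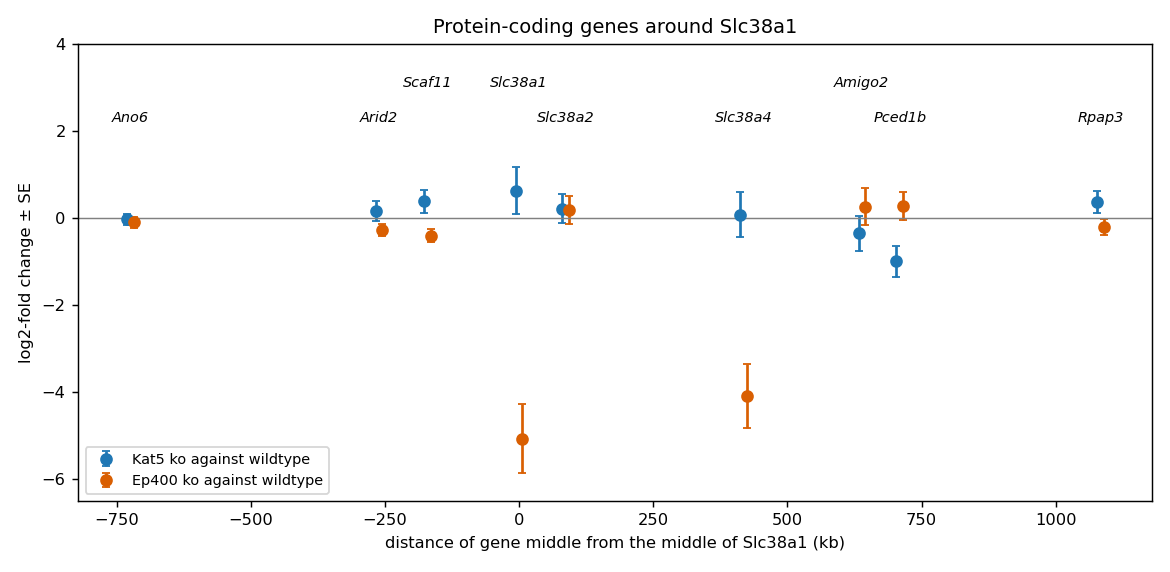
log2-fold change with SE (vertical axis) of the tested protein-coding genes around *Slc38a1*, by distance of the middle of each gene from the middle of *Slc38a1* in kilobases (horizontal axis), in Kat5 ko (blue) and Ep400 ko (orange) against wildtype. *Slc38a1* at -5.07 and *Slc38a4* at -4.09 stand apart from *Slc38a2* at 0.18 between them in Ep400 ko.

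The heavy chain and the light chains *Slc7a5* and *Slc7a6* had log2-fold changes of opposite sign in Ep400 ko, none of which was called. *Slc3a2* (ENSMUSG00000010095, mm10 chr19:8706882-8723369, minus strand) was at 216, 159, 302 and 197 CPM in wildtype libraries 1 to 4, at 127, 222 and 175 CPM in Kat5 ko clones 1 to 3 and at 274, 318 and 334 CPM in Ep400 ko clones 1 to 3. Ep400 ko clones lay at the upper end of the wildtype range or above, and above every Kat5 ko clone. The log2-fold change was 0.50 (SE 0.22, adjusted p = 0.155 in edgeR) in Ep400 ko and -0.36 (SE 0.26, adjusted p = 0.442) in Kat5 ko. Genes of chromosome 19 as a whole were displaced in the same direction in Ep400 ko: their median log2 difference from the wildtype mean was 0.29, 0.27 and 0.24 in clones 1 to 3. With an offset for the chromosome the log2-fold change of *Slc3a2* was 0.23. Without wildtype library 3 it was 0.68 and passed the threshold (adjusted p = 0.0471).

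*Slc7a5* (ENSMUSG00000040010, mm10 chr8:121881150-121907694, minus strand), the leucine exchanger, was at 264, 210, 394 and 260 CPM in wildtype libraries 1 to 4, at 136, 380 and 257 CPM in Kat5 ko clones 1 to 3 and at 200, 156 and 74.9 CPM in Ep400 ko clones 1 to 3. All Ep400 ko clones were below all wildtype libraries, with clone 3 lowest, and Kat5 ko clones overlapped wildtype. *Slc7a5* and *Slc38a1* were the 2 of 10 transporters with this separation in Ep400 ko, beside 14.1% of all genes tested, and 0 of 10 lay above the wildtype range in all Ep400 ko clones, beside 16.1%. The log2-fold change of *Slc7a5* in Ep400 ko was -0.97 (SE 0.34, adjusted p = 0.0904 in edgeR and 0.0303 in DESeq2). In Kat5 ko it was -0.16 (SE 0.34, adjusted p = 0.809 in edgeR), and it was positive at 0.14 without Kat5 ko clone 1 and at 0.05 without wildtype library 3. With an offset for the chromosome the log2-fold change in Ep400 ko was -0.83 (adjusted p = 0.130 in edgeR). The gene model of *Slc7a5* overlaps *Gm20388* on the opposite strand, which had no counts in any library.

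*Slc7a6* (ENSMUSG00000031904, mm10 chr8:106168857-106198706, plus strand), the cationic and neutral exchanger, was at 47.0, 48.2, 55.3 and 53.0 CPM in wildtype libraries 1 to 4, at 59.4, 113 and 85.2 CPM in Kat5 ko clones 1 to 3 and at 35.2, 37.6 and 53.0 CPM in Ep400 ko clones 1 to 3. It was the steadiest of the transporters in wildtype, with a coefficient of variation of 7.78%. It was also the 1 of 10 transporters with every Kat5 ko clone above every wildtype library, beside 9.67% of all genes tested. The log2-fold change in Kat5 ko was 0.72 (SE 0.21, adjusted p = 0.104 in edgeR and 0.0353 in DESeq2), and in Ep400 ko it was -0.28 (SE 0.17, adjusted p = 0.292 in edgeR).

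The balance within this group was described by 2 ratios. The CPM of *Slc3a2* relative to the sum of its 6 light chain genes (*Slc7a5*, *Slc7a6*, *Slc7a7*, *Slc7a8*, *Slc7a10* and *Slc7a11*) was 0.619, 0.554, 0.577 and 0.540 in wildtype libraries 1 to 4 and 0.615, 0.436 and 0.473 in Kat5 ko clones 1 to 3. In Ep400 ko clones 1 to 3 it was 0.999, 1.5 and 2.38. Thus every Ep400 ko clone had more heavy chain transcript per light chain transcript than any other library. The difference from wildtype was 1.42 on the log2 scale (two-sided exact permutation test p = 0.0571, adjusted p = 0.286). No offset for the chromosome entered this ratio. *Slc3a2* lies on chromosome 19, displaced as given above, and *Slc7a5* and *Slc7a6* lie on chromosome 8. Genes of chromosome 8 had a median log2 difference from the wildtype mean of -0.21, -0.00053 and -0.14 in Ep400 ko clones 1 to 3. The part of these displacements in the ratio was not tested. The ratio of *Slc7a5* to *Slc7a6* was 5.61, 4.36, 7.12 and 4.90 in wildtype libraries 1 to 4, 2.29, 3.36 and 3.01 in Kat5 ko clones 1 to 3 and 5.68, 4.14 and 1.41 in Ep400 ko clones 1 to 3. All Kat5 ko clones were below wildtype, by 0.92 on the log2 scale (two-sided exact permutation test p = 0.0571, adjusted p = 0.286), whereas Ep400 ko clones overlapped it.

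**Figure D4:**
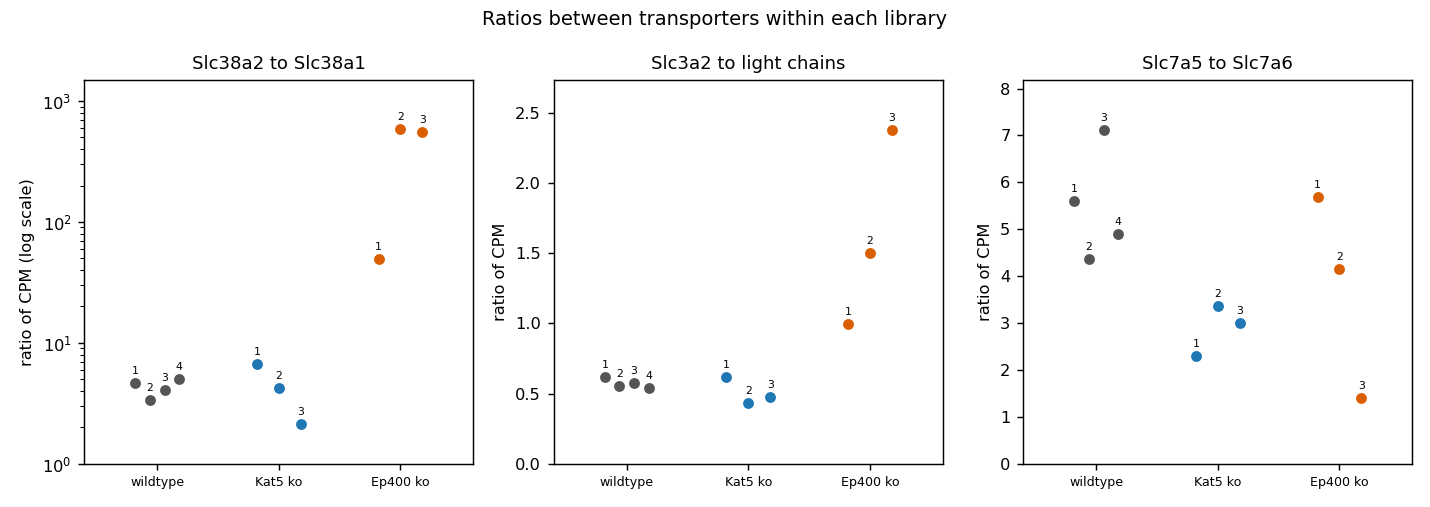
Ratio of CPM between transporters within each library (vertical axes, the first on a log scale), with libraries numbered by replicate or clone. *Slc38a2* to *Slc38a1* reached 49.3 or more in Ep400 ko, *Slc3a2* to light chains 0.999 or more in Ep400 ko, and *Slc7a5* to *Slc7a6* stayed at 3.36 or less in Kat5 ko.

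Among the cationic amino acid carriers, *Slc7a1* (ENSMUSG00000041313, mm10 chr5:148327410-148399904, minus strand) was at 96.2, 70.4, 112 and 97.4 CPM in wildtype libraries 1 to 4, at 55.5, 156 and 145 CPM in Kat5 ko clones 1 to 3 and at 74.8, 66.7 and 24.5 CPM in Ep400 ko clones 1 to 3. Kat5 ko clones lay on both sides of the wildtype range, and Ep400 ko clone 3 was lowest of all libraries. The log2-fold change was 0.30 (SE 0.33, adjusted p = 0.620 in edgeR) in Kat5 ko and -0.77 (SE 0.35, adjusted p = 0.171) in Ep400 ko. *Slc7a3* (ENSMUSG00000031297, mm10 chrX:101079210-101086020, minus strand) was scarce, with 1.09, 0.722, 1.12 and 1.70 CPM in wildtype libraries 1 to 4, 0.937, 0.659 and 0.749 CPM in Kat5 ko clones 1 to 3 and 0.493, 0.281 and 0.821 CPM in Ep400 ko clones 1 to 3. The raw counts behind these levels were 9 to 77 per library, and the groups overlapped. The log2-fold change of *Slc7a3* was -0.60 (SE 0.42, adjusted p = 0.429) in Kat5 ko and -1.11 (SE 0.50, adjusted p = 0.159) in Ep400 ko.

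The exchangers of small neutral amino acids were lower on average in Ep400 ko, but neither passed the threshold. *Slc1a4* (ENSMUSG00000020142, mm10 chr11:20302180-20332713, minus strand) was at 62.8, 38.3, 78.7 and 68.2 CPM in wildtype libraries 1 to 4, at 55.1, 52.4 and 43.8 CPM in Kat5 ko clones 1 to 3 and at 40.7, 34.7 and 30.8 CPM in Ep400 ko clones 1 to 3. Ep400 ko clones were close to the lowest wildtype library, number 2, and below every Kat5 ko clone. The log2-fold change in Ep400 ko was -0.81 (SE 0.24, adjusted p = 0.0586 in edgeR and 0.0181 in DESeq2), and without wildtype library 2 it was -0.98 (adjusted p = 0.0210 in edgeR). In Kat5 ko it was -0.33 (SE 0.24, adjusted p = 0.448 in edgeR). Genes of chromosome 11 had a median log2 difference from the wildtype mean of -0.17, -0.19 and -0.20 in Ep400 ko clones 1 to 3. With an offset for the chromosome the log2-fold change of *Slc1a4* in Ep400 ko was -0.62 (adjusted p = 0.102 in edgeR). *Slc1a5* (ENSMUSG00000001918, mm10 chr7:16781340-16798274, plus strand), also a glutamine carrier, was at 99.5, 80.9, 125 and 90.0 CPM in wildtype libraries 1 to 4, at 109, 144 and 154 CPM in Kat5 ko clones 1 to 3 and at 90.0, 39.5 and 29.2 CPM in Ep400 ko clones 1 to 3. Ep400 ko clone 1 was inside the wildtype range, and clones 2 and 3 were below it. The log2-fold change was -0.90 (SE 0.36, adjusted p = 0.127 in edgeR) in Ep400 ko and 0.43 (SE 0.19, adjusted p = 0.222) in Kat5 ko. Without Ep400 ko clone 1 it was -1.53 in Ep400 ko (adjusted p = 0.0106).

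*Slc6a9* (ENSMUSG00000028542, mm10 chr4:117834506-117875198, plus strand), the glycine transporter, was the most variable of the transporters in wildtype. It was at 46.7, 15.7, 96.9 and 44.1 CPM in wildtype libraries 1 to 4, at 8.57, 12.8 and 14.6 CPM in Kat5 ko clones 1 to 3 and at 17.1, 17.6 and 25.8 CPM in Ep400 ko clones 1 to 3. All Kat5 ko clones were below all wildtype libraries, the 1 of 10 transporters with this separation beside 10.2% of all genes tested, and Ep400 ko clones were just above wildtype library 2. The log2-fold change in Kat5 ko was -2.11 (SE 0.54, 95% confidence interval -3.35 to -0.88, adjusted p = 0.0890 in edgeR and 0.000677 in DESeq2). The log2-fold change in Ep400 ko was -1.33 (SE 0.51, adjusted p = 0.113 in edgeR and 0.0286 in DESeq2). Without wildtype library 2 it was -1.63 (adjusted p = 0.0339 in edgeR), and without wildtype library 3 it was -0.83. The gene model overlaps *B4galt2* on the opposite strand, and this gene was at 55.7, 53.3 and 49.1 CPM on average in wildtype, Kat5 ko and Ep400 ko.

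Most extremes among the wildtype libraries came from the same cultures. Wildtype library 3 had the highest level of 9 of 10 transporters, beside 33.3% of all genes tested, and wildtype library 2 the lowest of 8, beside 27.3%. Relative to the wildtype mean, the median log2 difference of the transporters was -0.53, 0.47 and 0.27 in Kat5 ko clones 1 to 3 and -0.49, -0.80 and -0.83 in Ep400 ko clones 1 to 3. Kat5 ko clone 1 thus stood apart from the other Kat5 ko clones, while all Ep400 ko clones were on the lower side. The summed level of all 10 was 1308 ± 405 CPM in wildtype (SD, n = 4), 1405 ± 466 CPM in Kat5 ko (SD, n = 3) and 1073 ± 41.7 CPM in Ep400 ko (SD, n = 3), so that the groups overlapped in the total. Across the 10 libraries the closest pairs were *Slc7a5* with *Slc7a1* (Pearson r = 0.94) and *Slc38a1* with *Slc1a5* (r = 0.92), and *Slc38a1* with *Slc3a2* gave the lowest value (r = -0.61). These values are descriptions over libraries that share genotype and scaling.

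The genes whose pattern over the 10 libraries was most like the mean of the transporters were sought among 9135 genes with a mean over 10 CPM. The mean used log2 CPM centred for each gene but not scaled to equal spread. *Slc38a1*, with the largest change in Ep400 ko, therefore weighed most in it there, and *Slc3a2* went the other way. *Eprs*, which encodes the glutamyl-prolyl-tRNA synthetase, came first (r = 0.98). It was followed by *Taf15* (r = 0.96), *Zkscan17* (r = 0.95), *Snd1* (r = 0.95) and *Eif3c*, a translation initiation factor subunit (r = 0.95). *Eprs* was at 421, 298, 557 and 482 CPM in wildtype libraries 1 to 4, at 250, 552 and 509 CPM in Kat5 ko clones 1 to 3 and at 263, 204 and 205 CPM in Ep400 ko clones 1 to 3.

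Direct comparison of the ko groups called *Slc38a1* as the 1 of 10 transporters at lower level in Ep400 ko, beside 2.83% of the 13587 genes tested that were called lower and 7.05% called in either direction. In edgeR 0 of 10 were called higher, beside 4.22% of all genes tested. At an unadjusted p under 0.05, 2 were higher and 4 lower. The share of all genes at this threshold is not given here, so whether these counts exceed it cannot be told. DESeq2 called *Slc3a2* higher and *Slc38a1*, *Slc7a6* and *Slc1a5* lower. It also called more of all genes than edgeR did in this comparison. The log2-fold change of *Slc38a1* was -5.75 (SE 1.07, adjusted p = 0.0333 in edgeR). It was lower in 3 of 3 Ep400 ko clones, but the call was lost without Ep400 ko clone 2 (adjusted p = 0.0904), Ep400 ko clone 3 (0.101), Kat5 ko clone 2 (0.0741) or Kat5 ko clone 3 (0.116). In total 4 of 10 transporters were below the Kat5 ko range in all Ep400 ko clones, beside 18% of all genes tested: *Slc38a1*, *Slc7a6* (-1.05, adjusted p = 0.0594), *Slc1a5* (-1.38, adjusted p = 0.0752) and *Slc1a4* (-0.53, adjusted p = 0.122). *Slc3a2* (0.80, adjusted p = 0.0765) and *Slc6a9* (0.73, adjusted p = 0.141) were above it in all Ep400 ko clones, beside 20.5%. The remaining log2-fold changes were -1.12 for *Slc7a1*, -0.86 for *Slc7a5*, -0.57 for *Slc7a3* and -0.09 for *Slc38a2*, with adjusted p between 0.174 and 0.870 in edgeR.

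Other amino acid transporters of the plasma membrane provided a few genes that rose in Ep400 ko. Of 40 such genes in the table, 16 were tested in Ep400 ko. *Slc7a2* and *Slc7a8*, both called higher, had under 10 counts in every wildtype library, so that they passed the filter on low counts only through the Ep400 ko clones and had to differ. Of the other 14 genes 2 were called higher, beside 8% of all genes tested, and 1 lower, namely *Slc38a4*, beside 5.72%. *Slc7a2*, a further carrier of cationic amino acids, had 3, 3, 2 and 3 counts in wildtype libraries 1 to 4 and 829, 21 and 538 counts in Ep400 ko clones 1 to 3 (adjusted p = 0.00611 in edgeR). *Slc7a8*, a light chain for neutral amino acids, had 1 count in the 4 wildtype libraries combined and 27, 20 and 35 counts in Ep400 ko clones (adjusted p = 0.00337). Both were thus almost absent from wildtype, and *Slc7a2* was far lower in Ep400 ko clone 2 than in the others. *Slc36a1*, a proton-coupled amino acid transporter, rose from 16.8 ± 4.21 CPM (SD, n = 4) to 49.0 ± 3.77 CPM (SD, n = 3), a log2-fold change of 1.54 (SE 0.22, adjusted p = 0.00553). *Slc7a4* was called at 1.33 (SE 0.35, adjusted p = 0.0395), but in only 1 of 7 fits with a library left out. In Kat5 ko 14 of these genes were tested and edgeR called 0, beside 0.625% of all genes tested. At an unadjusted p under 0.05, 1 was higher and 3 were lower, beside 10.7% and 11.6%, and DESeq2 called *Slc7a4* and *Slc7a11* lower. Of the mitochondrial and lysosomal amino acid carriers 14 of 17 were tested and edgeR called 0 in either ko. At an unadjusted p under 0.05, 3 were higher and 1 lower in each ko, beside 10.7% and 11.6% of all genes tested in Kat5 ko and 18% and 14.2% in Ep400 ko, and DESeq2 called *Slc25a22* higher and *Mfsd12* lower in Kat5 ko, and *Sfxn3* higher and *Sfxn1* lower in Ep400 ko. These genes, named for their DESeq2 calls, were chosen after their values were seen.

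Genes of amino acid sensing upstream of mTORC1, the growth kinase complex that responds to leucine and arginine, were tested as well. In Ep400 ko 33 were tested, of which *Rragd* had under 10 counts in every wildtype library and passed the filter only through the Ep400 ko clones. Of the other 32, 2 were called higher and 1 lower, beside 8% and 5.72% of all genes tested, so that the list had no more calls than the background. *Rragd*, a Rag GTPase subunit, was at 0.147 ± 0.0557 CPM in wildtype (SD, n = 4) and 3.69 ± 1.47 CPM in Ep400 ko (SD, n = 3), with a log2-fold change of 4.64 (SE 0.50, adjusted p = 0.00255 in edgeR). Its relative *Rragb* rose by 2.38 (SE 0.46, adjusted p = 0.0146) from 0.441 CPM on average, and *Mlst8*, an mTORC1 subunit chosen after its value was seen, rose by 0.65 (SE 0.18). *Lars*, the leucyl-tRNA synthetase, fell by 1.32 on the log2 scale (SE 0.22, adjusted p = 0.00855), from 267 ± 47.4 CPM (SD, n = 4) to 107 ± 26.2 CPM (SD, n = 3). In Kat5 ko edgeR called 0 of 32, beside 0.625% of all genes tested. At an unadjusted p under 0.05, 2 were higher and 5 lower, beside 10.7% and 11.6% of all genes tested, and DESeq2 called *Sesn3* lower.

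Several genes of the amino acid response outside transport were called in both ko groups. Of 19 such genes 6 were called lower and 0 higher in Kat5 ko, beside 0.447% and 0.179% of all genes tested, and their median log2-fold change was -1.11. The list was chosen with earlier results of these data known. It holds *Asns*, *Cth*, *Nupr1*, *Ddit4*, *Psph* and *Eif4ebp1*, which the study had already picked for RT-PCR of genes lower in both ko groups. The contrast with all genes was thus partly set in advance. *Trib3*, a pseudokinase, had a log2-fold change of -3.70 (SE 0.50, adjusted p = 0.0287 in edgeR), *Cth*, a cysteine synthesis enzyme, of -3.23 (SE 0.54, adjusted p = 0.0493) and *Chac1*, which degrades glutathione, of -2.65 (SE 0.41, adjusted p = 0.0445). The values were -2.35 (SE 0.33) for *Nupr1*, a stress-induced chromatin protein, -2.02 (SE 0.24) for *Vldlr*, a lipoprotein receptor, and -1.29 (SE 0.21) for *Asns*, the asparagine synthetase. The count was 0 without Kat5 ko clone 3, wildtype library 1 or wildtype library 4, 2 without Kat5 ko clone 2, 3 without wildtype library 3 and 12 without Kat5 ko clone 1. The number of all genes called also varied between the fits that left out 1 library, from 1 to 2654. The direction of these 6 genes did not change in any of these fits.

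In Ep400 ko 7 of the 19 response genes were called lower and 1 higher, beside 5.72% and 8% of all genes tested, with a median log2-fold change of -0.85. The choice of the list limits this contrast in the same way. The log2-fold change was -2.41 (SE 0.46) for *Nupr1*, -2.40 (SE 0.48) for *Trib3*, -1.99 (SE 0.39) for *Ddit4*, an inhibitor of mTORC1, -1.61 (SE 0.35) for *Phgdh*, the first enzyme of serine synthesis, -1.60 (SE 0.34) for *Asns* and -1.53 (SE 0.32) for *Cth*, with adjusted p between 0.0143 and 0.0213 in edgeR. The seventh, *Psph*, a further enzyme of serine synthesis, was at -1.48 (SE 0.20, adjusted p = 0.00475), and it is named after its value was seen. *Vldlr* rose by 1.12 (SE 0.22, adjusted p = 0.0142), opposite to its direction in Kat5 ko. It was at 60.8 ± 16.4 CPM in wildtype (SD, n = 4), 15.3 ± 2.35 CPM in Kat5 ko (SD, n = 3) and 132 ± 16.0 CPM in Ep400 ko (SD, n = 3). Leaving out 1 library gave 4 to 8 genes called lower, with 4 without wildtype library 1 or wildtype library 4.

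**Figure D5:**
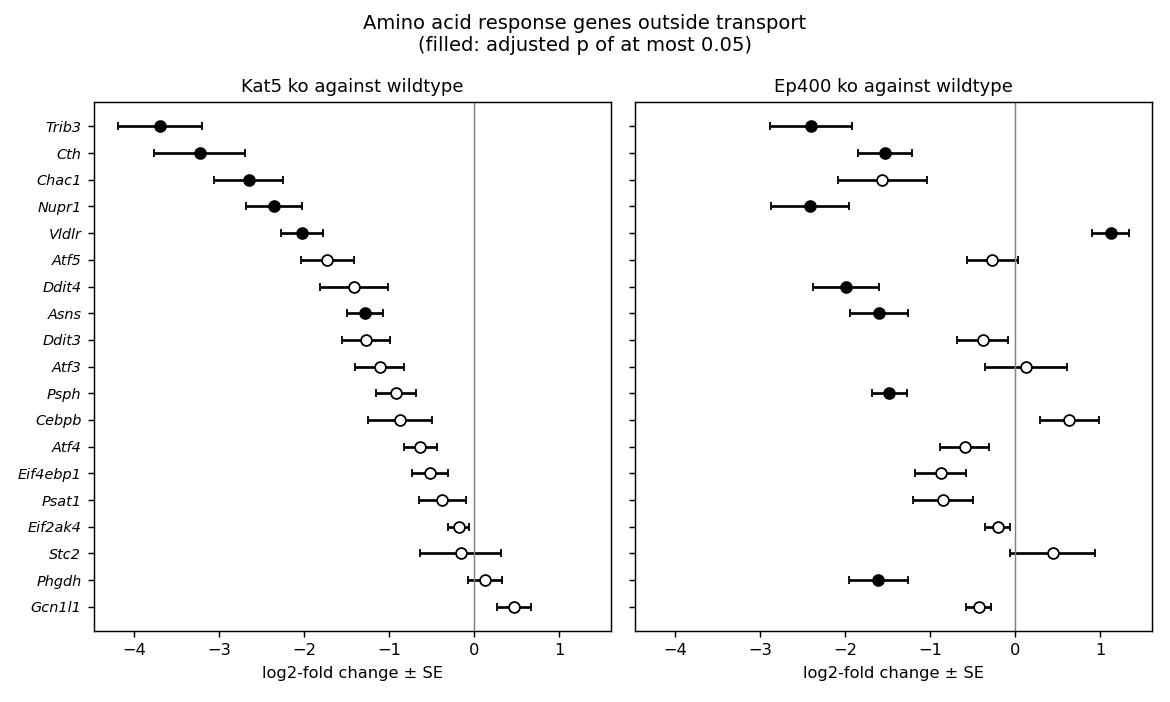
log2-fold change with SE of the 19 amino acid response genes outside transport (rows) in Kat5 ko and Ep400 ko against wildtype (panels), ordered by the value in Kat5 ko; filled points were called in edgeR. Most points lie left of 0 in both panels, with *Trib3* lowest at -3.70 in Kat5 ko, and *Vldlr* changes sides at 1.12 in Ep400 ko.

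The element through which Atf4 and its partners bind was searched as the letters TGATGNAA on both strands of RefSeq promoter windows of GRCm38.p6, which reach from 250 bases before to 50 bases after a gene start. At least 1 window held it for 4.51% of the 27025 genes with a window. Of the transporters 6 of 10 had a window, and only *Slc1a4* held the letters. Of the response genes 17 of 19 had a window and 6 held the letters, among them 5 of the 6 that were called lower in Kat5 ko. Of the genes called lower in Ep400 ko, *Nupr1*, *Trib3* and *Asns* held them, while *Ddit4*, *Phgdh*, *Cth* and *Psph* were not among the holders. *Vldlr*, which rose in Ep400 ko, held them too. The list was made of genes of the Gcn2 and Atf4 response, so its share with the letters is no independent result. The matches in *Slc1a4* and in the 5 genes called lower in Kat5 ko are shown with their flanks on the gene's own strand, 5′ to 3′. The letters of the element, or of its reverse complement, are in capitals.
Slc1a4 (chr11:20332699-20332728, minus strand, 4 bases before the start): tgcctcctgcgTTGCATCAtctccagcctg
Asns (chr6:7693214-7693243, minus strand, 23 bases before the start): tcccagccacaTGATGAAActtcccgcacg
Chac1 (chr2:119351038-119351067, plus strand, 193 bases before the start): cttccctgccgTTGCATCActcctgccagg
Nupr1 (chr7:126625562-126625591, minus strand, 110 bases before the start): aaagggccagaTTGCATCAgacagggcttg
Trib3 (chr2:152344028-152344057, minus strand, 14 bases after the start): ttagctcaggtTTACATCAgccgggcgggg
Vldlr (chr19:27216809-27216838, plus strand, 200 bases before the start): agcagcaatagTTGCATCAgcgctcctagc
The E-box letters CACGTG, searched in the same windows, were found in 0 of these 6 transporters and in 8.09% of all genes with a window. A match of letters is a description of the window and not evidence of binding.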

How the data were processed

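Polyadenylated RNA of 4 wildtype, 3 Kat5 ko and 3 Ep400 ko libraries was sequenced by the authors as paired reads and aligned to mm10. The submitters' processing notes name bcl2fastq 2.20, STAR 2.7.3, DESeq2 1.36.0 and R 4.2.1. The authors deposited raw counts per gene, and only these were analysed. The deposited tables of normalized counts with the authors' fold changes and p-values were not used. The counting tool and its strand setting are not given in the sources used here, so that reads of overlapping genes on opposite strands may be shared.

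Each comparison was fitted on its own libraries with edgeR 4.0.16 in R 4.3.3 (filterByExpr, TMM scaling, robust quasi-likelihood test, Benjamini-Hochberg adjustment over all genes tested). Robust estimation was chosen after seeing the data, and the fit without it is an alternative. CPM used TMM factors over all 10 libraries. Intervals are 95% confidence intervals of the fit. Ratios within a library were compared by two-sided exact permutation tests. Exon lengths, positions and overlaps were taken from GENCODE M21, which is of the same build, and promoter windows from RefSeq (GRCm38.p6). The procedure was tested on simulated data. No replicate libraries were duplicates: counts of paired replicates differed by a chi-square per degree of freedom of 28.1 or more. Whether the wildtype libraries came from separate thaws or passages is not stated in the labels, so p-values measure the spread between these cultures and clones. The depth of 30968945 to 48301792 counts gave at least 9 counts for each transporter in every library.

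The transporters and the gene lists were chosen with earlier results of these data known. Named were all 10 transporters, genes of the other lists that were called and differed by 1 or more on the log2 scale (at most 6 per list and comparison), the 5 genes most like the mean transporter profile, and *Kat5* and *Ep400*. *Slc38a1* neighbours and *B4galt2* were added after the values were seen. Alternatives were DESeq2 1.42.0, RLE size factors, library size only, no filter on low counts, 1 fit of all 10 libraries, a replicate block, a chromosome offset, no robust estimation, a ratio of group means and leaving out each library.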

Additional observations from a re-analysis of the deposited data

Results flagged for a closer look

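*Slc38a1* in wildtype library 3 stood apart from the other wildtype libraries. Its gap to the nearest library made up 0.91 of the whole wildtype range, over Dixon's 95% critical value for 4 samples, with 141 CPM against 63.5 to 70.5 CPM in the other 3. Such a gap is expected by chance in about 1 in 20 groups. Without this library the log2-fold change of *Slc38a1* in Ep400 ko was -4.74 (adjusted p = 0.0134 in edgeR).

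The effect on *Slc38a1* differed between the ko groups in the direct test. The log2-fold change of Ep400 ko against Kat5 ko was -5.75 (adjusted p = 0.0333 in edgeR), with all 3 Ep400 ko clones below all 3 Kat5 ko clones. The Kat5 ko clones themselves ranged from 41.0 to 255 CPM.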

How the results depend on the processing

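The call of *Slc38a1* in Ep400 ko was kept under 7 of 8 alternative fits and lost with a replicate block (adjusted p = 0.0574 in edgeR). In Ep400 ko against Kat5 ko it was kept under 6 of 8 and lost without the filter on low counts (0.0918) and with the block (0.0623). The causes were not tested. DESeq2 called 1382 genes and 2 transporters in Kat5 ko (84 and 0 in edgeR), 3177 and 4 in Ep400 ko (1899 and 1) and 3021 and 4 in Ep400 ko against Kat5 ko (958 and 1). Without the filter 286 genes were called in Kat5 ko, 2 transporters in Ep400 ko and 1445 genes in Ep400 ko against Kat5 ko. With 1 fit of all 10 libraries 27 genes were called in Kat5 ko, and 3555 genes and 4 transporters in Ep400 ko against Kat5 ko. Replicate numbers did not pair the samples: deviations of same-numbered libraries correlated between -0.0957 and 0.223. With the replicate block 0 genes were called in Kat5 ko, 166 genes and 0 transporters in Ep400 ko, and 213 genes and 0 transporters in Ep400 ko against Kat5 ko. In that comparison the median of the transporters (-0.71) was -0.58 with library size only and -0.58 with the chromosome offset, and *Slc38a2* was at 0.058 and 0.031 instead of -0.09. Scaling by library size alone moved the median of all genes in it by 0.13.

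Leaving out 1 library gave 1 to 2654 genes and 0 to 2 transporters called in Kat5 ko, 804 to 2020 genes and 1 to 3 transporters in Ep400 ko, and 3 to 2537 genes and 0 to 2 transporters in Ep400 ko against Kat5 ko. The lowest counts of genes came without wildtype library 1 or 4, without wildtype library 1, and without Ep400 ko clone 3, respectively. The median of the transporters ranged from -1.05 to -0.64 in Ep400 ko and from -0.81 to -0.60 in Ep400 ko against Kat5 ko. In Kat5 ko *Slc38a1* ranged from -0.19 to 1.06 and *Slc7a5* from -0.54 to 0.14, and *Slc38a2* ranged from -0.34 to 0.13 in Ep400 ko against Kat5 ko. On the log2 scale, *Slc38a2* to *Slc38a1* ranged from -0.49 to 0.33 in Kat5 ko, *Slc7a1* to *Slc7a3* from -0.32 to 1.18 in Ep400 ko and from -1.06 to 0.44 in Ep400 ko against Kat5 ko, and *Slc7a5* to *Slc7a6* from -0.24 to 0.77 in the latter. None of these ratios could have passed the permutation test. The smallest p it allows is 0.0571 against wildtype and 0.1 in Ep400 ko against Kat5 ko.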

Other observations

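Ratios within 2 further transporter pairs were computed. *Slc7a1* to *Slc7a3* CPM was 57.2 to 100 in wildtype, 59.2, 237 and 193 in Kat5 ko clones 1 to 3 and 152, 237 and 29.8 in Ep400 ko clones 1 to 3. *Slc1a5* to *Slc1a4*, the small neutral amino acid exchangers, was 1.32 to 2.11 in wildtype, 1.98, 2.76 and 3.52 in Kat5 ko clones 1 to 3 and 2.21, 1.14 and 0.948 in Ep400 ko clones 1 to 3. Kat5 ko and Ep400 ko clones overlapped in both ratios.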
